A study of Rattus norvegicus with 399 samples.

Results

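Gstp1 encodes the pi-class glutathione transferase, a cytosolic enzyme that couples glutathione to reactive electrophiles. It was chosen by its symbol: 1 of the 2654 probes on the panel was named for it, out of 2603 gene symbols. The choice was made with its levels in the liver of both compounds and in the kidney of 1,2-DCB already known. In those tissues its values are therefore a description with standard errors and no p-value, while heart, lung and ovary, and the kidney of 1,4-DCB, were tested. The submitters' 9 rejected libraries were left out of the 399, so 390 were used.

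The libraries came from female Sprague-Dawley rats 9 weeks old, an outbred stock, with tissue taken on study day 5. Rats received 1,2-dichlorobenzene (1,2-DCB) at 1, 10, 30, 100, 250 or 500 ppm, or 1,4-dichlorobenzene (1,4-DCB) at 1, 10, 50, 150, 400 or 800 ppm, and each compound had its own rats at 0 ppm. The compounds differ in whether the second chlorine sits beside the first on the benzene ring or opposite it. Liver, kidney, lung, heart and ovary were sampled from the same rats, 1 library per rat and tissue, with 3 to 5 used libraries in each exposed group and 8 to 10 in each control group. The liver sample was part of the left lobe, and the sources used here do not state the route of exposure. TempO-Seq counts ligated pairs of short detector oligonucleotides that meet on a transcript, so it reads only the genes on its panel, here the Rat S1500+ set.

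In adult rats Gstp1 is scarce in normal hepatocytes but present in bile duct cells and in many tissues outside the liver. In rat liver carcinogenesis studies its protein, the placental form of the enzyme, is a standard marker of enzyme-altered foci. The gene responds to NRF2, a transcription factor that KEAP1 holds back until electrophiles or oxidants modify KEAP1, and to AP-1, the FOS and JUN family. Dichlorobenzenes are oxidised by cytochromes P450, in part to epoxides, and glutathione conjugates are among their known metabolites.

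The sequence just upstream of the gene is shown because NRF2 with its MAF partners, and AP-1, bind closely related elements. It comes from RefSeq on build GRCr8 and covers the 250 bases before the annotated start, chr1:210769706-210769955, minus strand, printed 5′ to 3′ in the direction of the gene. The capitals mark a run that is at the same time an AP-1 element (TGACTCA) and an antioxidant response core (TGANNNNGC).

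Gstp1: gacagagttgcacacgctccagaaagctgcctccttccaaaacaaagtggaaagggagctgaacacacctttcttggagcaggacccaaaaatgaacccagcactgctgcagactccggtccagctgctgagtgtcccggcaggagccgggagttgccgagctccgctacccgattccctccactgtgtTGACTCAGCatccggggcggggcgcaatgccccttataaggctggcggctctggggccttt

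The first capital lies 61 bases before the start. Counting both strands, TGACTCA was found in 4.05% of the 33469 promoters of the same length in the table, TGANNNNGC in 34.7%, and the whole run TGACTCAGC in 0.376%. A GC box (GGGCGG) begins 47 bases before the start and a TATAA motif 27 bases before it; these were found in 30.5% and 24% of promoters. Of the 10 glutathione transferases on the panel 9 had a promoter in the table, and 2 of these, Gstp1 and Gstm5, held TGACTCA. Such matches are letters in a window, not evidence of binding.

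Used libraries held between 1202354 and 69774071 counts. No 2 libraries were identical, and the closest pair correlated at 0.987. Levels are given as CPM, a probe's counts relative to the counts of its library, scaled among the libraries of each tissue and compound by the trimmed mean of M-values (TMM), so a level is compared between rats of 1 tissue and not between genes. Markers of the labelled tissue were present in liver, kidney, heart and ovary, while no gene of the lung epithelium list was on the panel. The 5 liver libraries at 500 ppm 1,2-DCB stood apart, with a median correlation of 0.916 to 0.933 with the rest of their tissue, against 0.938 or more for every other library. They make up their whole group, so no comparison of that group can be given without them. Since these are whole tissues, more cells that contain a transcript cannot be told apart from more transcript per cell.

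In liver, Gstp1 was far above its control level at the 2 highest concentrations of 1,2-DCB and modestly above it at 100 ppm. At 0 ppm it lay between 2.14 and 4.19 CPM (median 3.08, n = 10), which was 77 to 186 counts in a library. At 1 ppm the 5 rats had 5.60, 2.00, 3.16, 2.76 and 2.69 CPM. At 10 ppm they had 2.43, 10.4, 4.41, 8.21 and 3.04 CPM, so 3 of 5 were above every control and the others were within the control range. At 30 ppm the lowest, median and highest were 1.31, 2.94 and 5.88 CPM, and 1 rat was above the controls. The groups at 1 and 30 ppm thus overlapped the controls, and the rats at 10 ppm were split.

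From 100 ppm upward no exposed liver overlapped the controls. At 100 ppm Gstp1 lay between 5.36 and 8.33 CPM (mean 7.07 ± 1.10, SD, n = 5), against 3.04 ± 0.760 CPM in the controls (SD, n = 10). At 250 ppm the 5 rats had 83.1, 53.3, 27.3, 42.4 and 41.1 CPM. At 500 ppm they had 98.6, 119.3, 132.04, 148.1 and 78.8 CPM, the highest of them from 12270 counts. The lowest rat at 500 ppm was below the highest at 250 ppm, so those neighbouring groups overlapped, while 100 and 250 ppm did not.

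The log2 fold change against the controls was 0.09 ± 0.30 (SE) at 1 ppm, 0.89 ± 0.29 at 10 ppm and 0.09 ± 0.30 at 30 ppm. It was 1.22 ± 0.29 at 100 ppm, 4.02 ± 0.28 at 250 ppm and 5.25 ± 0.29 at 500 ppm. At 500 ppm this was a 38-fold higher level (95% interval 25.2 to 57.2), and at 250 ppm a 16.3-fold higher level. The step was steepest in the middle of the range: the mean at 250 ppm was 6.99 times that at 100 ppm, and the mean at 500 ppm was 2.34 times that at 250 ppm. Of all probes tested in 1,2-DCB liver, 0% were called at 1 and 30 ppm, 0.0495% at 10 ppm, 2.13% at 100 ppm, 24.8% at 250 ppm and 67.8% at 500 ppm, at an adjusted p under 0.05 in edgeR's quasi-likelihood test.

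**Figure D1:**
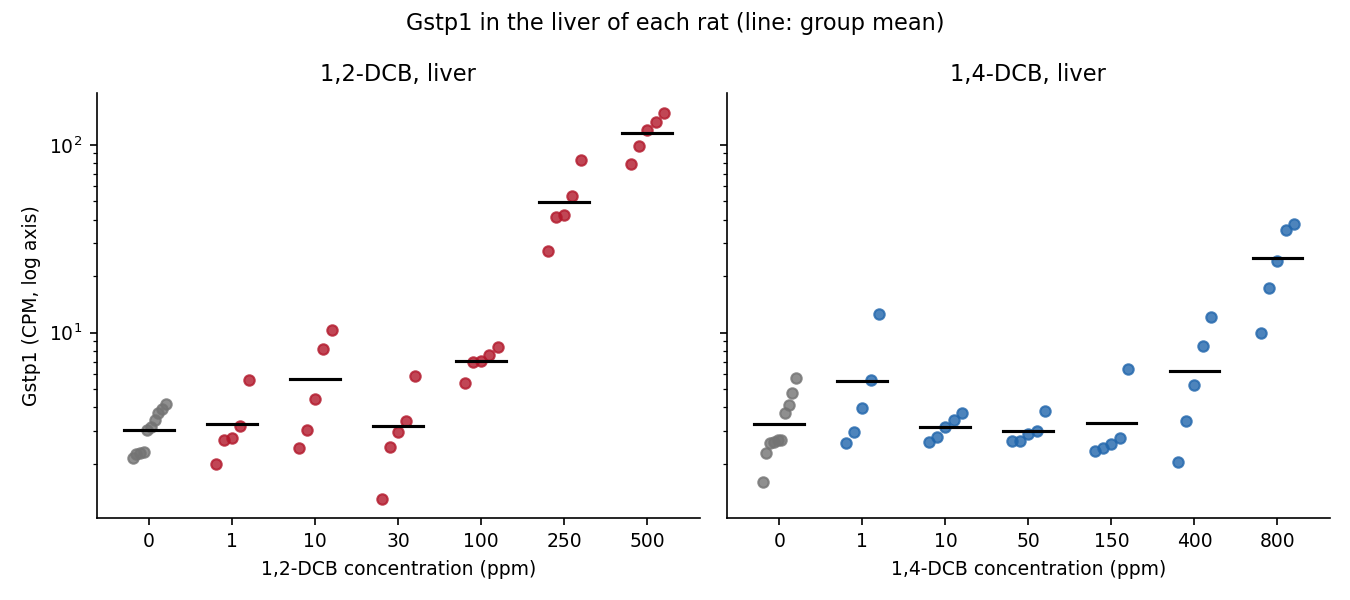
Gstp1 in the liver of each rat in CPM (log axis) by concentration in ppm, 1,2-DCB in the left panel and 1,4-DCB in the right; points are rats, grey points the 0 ppm rats, and lines group means. The 1,2-DCB groups leave the control range from 100 ppm, where the lowest rat was at 5.36 CPM, and the 1,4-DCB group at 800 ppm, where the lowest was at 10.0 CPM.

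Under 1,4-DCB the liver controls lay between 1.6 and 5.71 CPM (median 2.69, n = 10). At 1 ppm the 5 rats had 3.98, 5.58, 2.57, 12.6 and 2.95 CPM, so that 1 rat, F104, stood above every control. At 10 and 50 ppm all rats were within the control range, with means of 3.13 ± 0.452 and 2.997 ± 0.473 CPM (SD, n = 5 each). At 150 ppm the range was 2.33 to 6.38 CPM, with 1 rat above the controls. Up to 150 ppm, then, single rats and not groups were high.

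At 400 ppm the rats had 5.25, 12.2, 8.52, 2.04 and 3.40 CPM, and 2 of 5 were above every control. At 800 ppm they had 10.0, 24.1, 35.2, 37.7 and 17.2 CPM, and all 5 were. The log2 fold change was 0.93 ± 0.35 (SE) at 400 ppm and 2.91 ± 0.34 at 800 ppm, the second a 7.53-fold higher level (95% interval 4.65 to 12.2), against 0.75 ± 0.36 at 1 ppm. Among all probes of 1,4-DCB liver 0% were called at 1, 10, 50 and 150 ppm, 6.44% at 400 ppm and 34.9% at 800 ppm. The highest 1,4-DCB rat, at 37.7 CPM, was below the lowest 1,2-DCB rat at 500 ppm, at 78.8 CPM; the concentrations differ and no test was made.

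In kidney, where Gstp1 is plentiful without exposure, the 1,2-DCB controls lay between 125.5 and 200.7 CPM (median 167, n = 9). The means at 1, 10 and 30 ppm were 139.3 ± 31.4, 156.3 ± 30.2 and 177 ± 28.1 CPM (SD, n = 5 each). At 100 ppm the rats had 234, 213, 196, 170.3 and 179.8 CPM, and 2 of 5 were above the controls. At 250 ppm they had 279.9, 277, 239, 279.7 and 245 CPM, and at 500 ppm 574.5, 646, 616, 1152 and 634 CPM. Each kidney at 250 ppm was above every control, and each at 500 ppm above every kidney at 250 ppm.

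The log2 fold change in 1,2-DCB kidney was 0.29 ± 0.14 (SE) at 100 ppm, 0.70 ± 0.14 at 250 ppm and 2.16 ± 0.14 at 500 ppm, the last a 4.46-fold higher level (95% interval 3.67 to 5.41). Here the larger step was the last: the mean at 250 ppm was 1.33 times that at 100 ppm, and the mean at 500 ppm was 2.74 times that at 250 ppm. At 100 ppm 0% of all kidney probes were called, at 250 ppm 0.0846%, and at 500 ppm 16.4%. At 500 ppm the summed kidney tubule markers (3 genes on the panel) were 172.1 to 301.1 CPM, against 168 to 240.6 CPM in controls. Other marker sums lay below the control range: fibroblast and stellate cell at 312 to 503.2 CPM, against 692 to 1157 CPM, lymphocyte at 4.25 to 6.50 CPM, against 8.36 to 12.2 CPM, and endothelium with a median of 229 CPM, against 417.5 CPM. Their part in the Gstp1 result was not tested.

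In the kidney of 1,4-DCB rats, where Gstp1 could be tested, no concentration was called. At 800 ppm it averaged 164 ± 17.1 CPM (SD, n = 5), against 149.6 ± 24.5 CPM in controls (SD, n = 10), a log2 fold change of 0.13 ± 0.11 (SE) with an adjusted p of 0.604 in edgeR's quasi-likelihood test. All 5 kidneys were inside the control range of 120.7 to 191.6 CPM. At 10 ppm the mean was 152.4 ± 14.8 CPM, a log2 difference of 0.03, while at 1, 50, 150 and 400 ppm the difference was below 0, between -0.38 and -0.20. At 1 ppm the 4 rats had 130.4, 96.5, 117.2 and 116.1 CPM, with 3 of 4 below every control. The lowest differences were -0.38 ± 0.12 at 1 ppm (p = 0.00424 in the edgeR fit, adjusted p 0.987) and -0.32 ± 0.11 at 400 ppm (adjusted p 0.4931), and did not pass. Of all kidney probes 0% were called at 1 ppm, 0.215% at 400 ppm and 5.03% at 800 ppm.

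In lung, Gstp1 rose at 500 ppm 1,2-DCB. The 4 used libraries had 270.0, 256.5, 432 and 411 CPM, against 95.8 to 139.2 CPM in the controls (n = 10), and the groups did not overlap. The log2 fold change was 1.55 ± 0.14 (SE; edgeR adjusted p 6.75e-11), and 8.85% of all lung probes were called, 4.16% upward. At 250 ppm the mean was 157 ± 21.7 CPM (SD, n = 5) with 4 of 5 rats above every control, a log2 difference of 0.42 ± 0.13 whose adjusted p was 0.762, at a concentration where 0% of all lung probes were called. At 1, 10 and 100 ppm the group means were 116.4, 117.7 and 122.2 CPM, and the rats at 30 ppm lay between 102.8 and 157.1 CPM, against a control mean of 117.2 ± 14.7 CPM. At 500 ppm the red cell marker sum was 3828 to 5881 CPM, against 6124 to 16770 CPM in controls, and the fibroblast sum 935 to 1345 against 1860 to 3365 CPM; macrophage markers were at 72810 to 101000 against 56290 to 92250 CPM. The part of these sums in the lung result was not tested.

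Ovary and heart rose by much less. Ovaries at 500 ppm 1,2-DCB had 136.3, 157, 126.5, 193 and 173 CPM, against 90.7 to 143.1 CPM in controls (median 106.9, n = 10), with 3 of 5 above every control. The log2 fold change was 0.50 ± 0.12 (SE; edgeR adjusted p 0.0167), where 2.91% of ovary probes were called. Hearts at 500 ppm had 73.7, 67.1, 71.6, 73.8 and 64.8 CPM, against 48.96 to 69.3 CPM in controls (median 57.3, n = 10), again with 3 of 5 above every control. The log2 fold change was 0.27 ± 0.083 (edgeR adjusted p 0.0257), and 12% of heart probes were called, 5.16% upward.

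Both smaller calls were lost when certain single rats were left out, while the differences stayed positive. Without rat F604 the ovary difference was 0.41 with an adjusted p of 0.0969, and the heart difference 0.25 with an adjusted p of 0.0727; without F601 the heart difference was 0.26 with an adjusted p of 0.0521. With library totals in place of TMM the heart difference was 0.24 with an adjusted p of 0.328. At 500 ppm the fibroblast marker sum in heart was 812 to 1118 CPM, against 2156 to 3479 CPM in controls, and in ovary 1971 to 3088 against 2981 to 5404 CPM. The heart muscle sum was 300100 to 370200 against 257200 to 408400 CPM. Their part in these results was not tested.

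Below 250 ppm Gstp1 was not called in these organs: the 12 comparisons at 1 to 100 ppm 1,2-DCB in heart, lung and ovary lay between -0.07 and 0.12 on the log2 scale, with the lowest edgeR adjusted p at 0.683; 5.64% of all heart probes were called at 1 ppm, 0.0434% of lung probes at 30 ppm and 0% in the other 10. At 250 ppm 0% of heart probes and 0.0435% of ovary probes were called. Under 1,4-DCB all 24 comparisons in kidney, heart, lung and ovary were uncalled and lay between -0.38 and 0.19. At 800 ppm 1,4-DCB Gstp1 averaged 131.6 ± 19.2 CPM in lung (SD, n = 5), against 124.4 ± 17.04 CPM in controls (SD, n = 8). It averaged 44.7 ± 5.60 CPM in heart (SD, n = 5), against 47.02 ± 4.40 CPM in controls (SD, n = 10), and 99.5 ± 4.82 CPM in ovary (SD, n = 5), against 108.3 ± 10.6 CPM in controls (SD, n = 10). The 95% intervals of these log2 differences were -0.11 to 0.27 in lung, -0.24 to 0.10 in heart and -0.33 to 0.09 in ovary, while 5.91%, 6.86% and 8.47% of all probes of those organs were called. Over the 42 tested comparisons, 3 were called higher and 0 lower by edgeR, and 6 had an unadjusted p under 0.05, 4 higher and 2 lower.

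**Figure D2:**
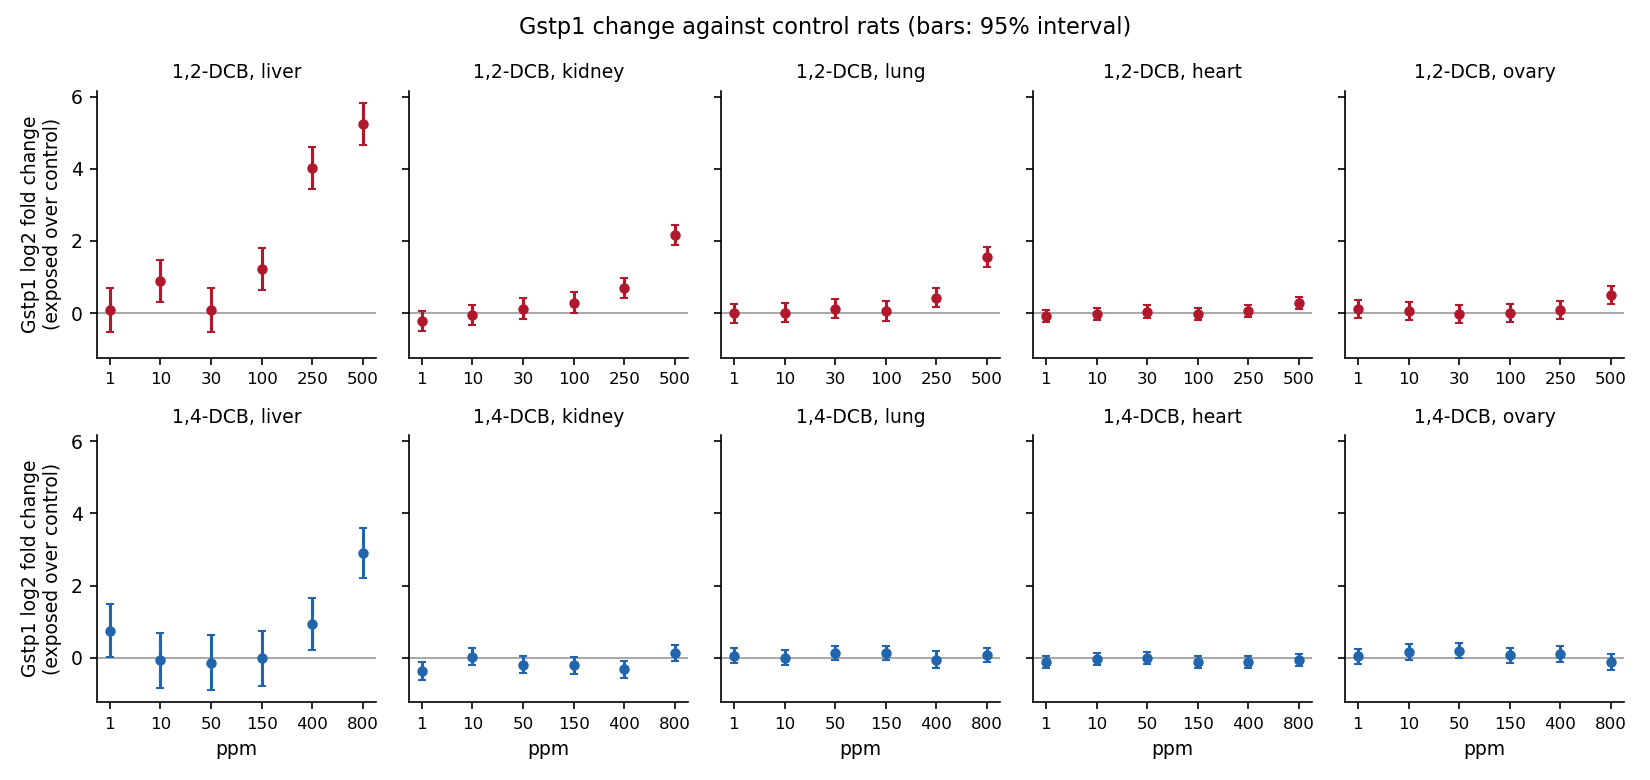
Log2 fold change of Gstp1, exposed over control, by concentration in ppm for each tissue, with 1,2-DCB in the upper row and 1,4-DCB in the lower; points are edgeR estimates and bars 95% intervals. The points rise with 1,2-DCB to 5.25 in liver, 2.16 in kidney and 1.55 in lung at 500 ppm, and with 1,4-DCB to 2.91 in liver at 800 ppm.

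The differences between the organs were tested where the choice of the gene had not used them. At 500 ppm 1,2-DCB the lung change exceeded the ovary change by 1.08 ± 0.25 on the log2 scale (SE; edgeR adjusted p 0.00448) and the heart change by 1.27 ± 0.25 (adjusted p 0.000576), in a fit where 3.48% and 1.15% of all probes were called. Ovary and heart did not differ past the threshold (0.19 ± 0.24, adjusted p 0.777). Under 1,4-DCB at 800 ppm the 6 differences among kidney, lung, ovary and heart lay between -0.05 and 0.24, with no adjusted p below 0.654, in comparisons where 0.705% to 9.86% of all probes were called; for ovary and heart under 1,2-DCB the share was 4.94%.

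The same rat was highest in every organ at 500 ppm 1,2-DCB. Rat F604 had 148.1 CPM in liver, 1152 CPM in kidney, 432 CPM in lung, 73.8 CPM in heart and 193 CPM in ovary. Its lead was wide in kidney, where the next rat had 646 CPM, and narrow in heart, where F601 had 73.7 CPM. The other ranks carried over between some organs only. Lung, with no used library of F601, and ovary ranked the rats they shared in the same order. F605 was lowest of 5 in liver and heart but second in lung and ovary. At 800 ppm 1,4-DCB rat F604 of that experiment was highest in 2 organs, liver and kidney, and 3 other rats were highest in 1 each.

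**Figure D3:**
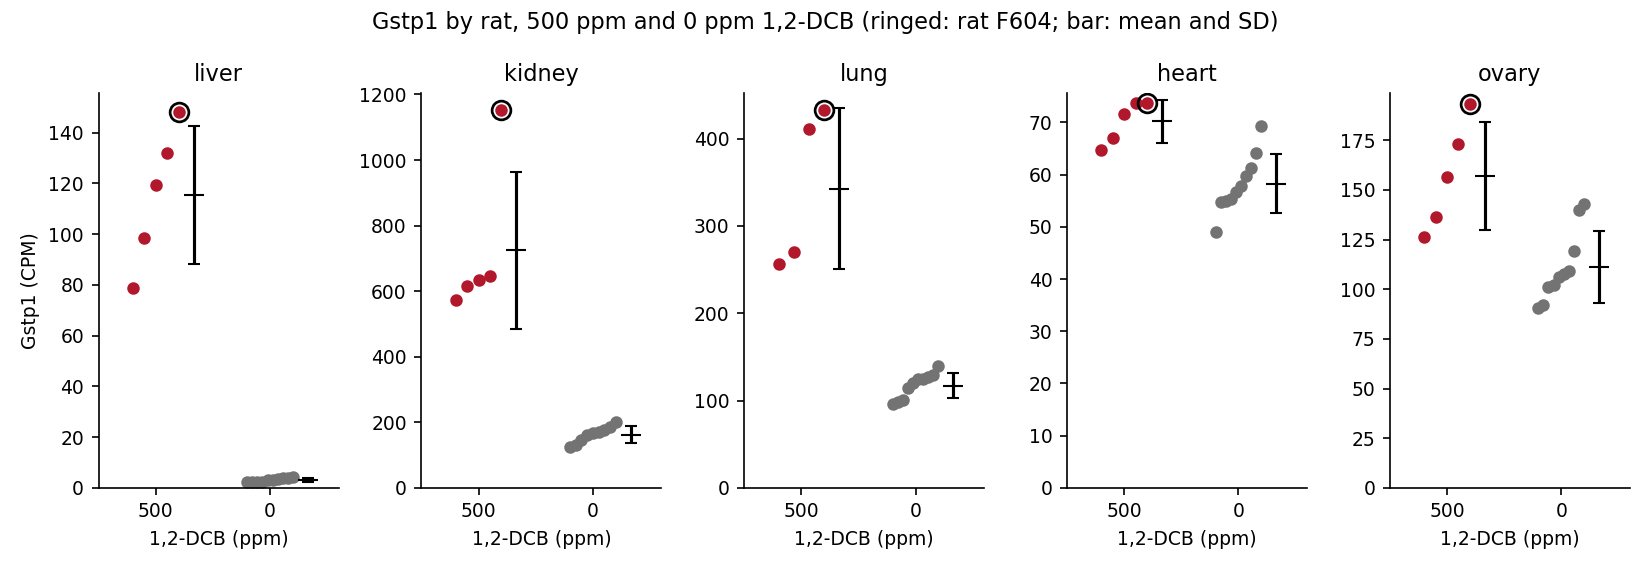
Gstp1 in CPM by rat at 500 ppm 1,2-DCB (red) and 0 ppm (grey) in 5 tissues, each on its own axis from 0; bars show the mean and SD, and rat F604 is ringed. F604 is the top red point in each tissue, and the red and grey points overlap in heart and ovary but not in liver, kidney or lung.

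Only 1 and 10 ppm were given of both compounds, which allowed 10 matched comparisons. The 6 in heart, lung and ovary were tested and none was called, each with an edgeR p of 0.992 when adjusted over the 6; those in liver and kidney are descriptions. In liver at 1 ppm the change under 1,4-DCB exceeded that under 1,2-DCB by 0.65 ± 0.48 on the log2 scale (SE; 95% interval -0.31 to 1.62). At 10 ppm it was lower by 0.97, a difference of -0.97 ± 0.48 (95% interval -1.93 to -0.006). In the other organs the differences lay between -0.16 and 0.10, with standard errors of 0.12 to 0.19. Of all probes 1.03% and 1.17% differed between the compounds in heart at 1 and 10 ppm, and 0% in the other organs. The intervals in liver still hold differences of more than 1 on the log2 scale, so at these concentrations the isomers are not shown to act alike there. The 2 control sets did not differ past the threshold in heart, lung or ovary; the nearest was heart, where the 1,4-DCB controls were lower by 0.18 (-0.18 ± 0.067, edgeR adjusted p 0.136), in an organ where 2.95% of all probes differed between the control sets.

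Without exposure Gstp1 was highest in kidney and lowest in liver. Scaled over all organs together, the 1,2-DCB controls averaged 129.6 ± 19.9 CPM in kidney, 64.6 ± 8.56 in lung, 50.0 ± 8.11 in ovary, 46.6 ± 4.10 in heart and 17.3 ± 4.27 in liver (SD, n = 9 in kidney and 10 in the others). The 1,4-DCB controls gave the same order, with 120.5 ± 19.7, 67.2 ± 9.83, 44.3 ± 4.28, 40.7 ± 3.33 and 18.9 ± 7.01 CPM (SD, n = 8 in lung and 10 in the others). In the 1,2-DCB controls kidney exceeded lung by 1.00 ± 0.11 on the log2 scale (SE) and heart exceeded liver by 1.43 ± 0.11, with no overlap of the rats; no p-value is given for these. In the 1,4-DCB controls kidney exceeded lung by 0.84 ± 0.13 (edgeR adjusted p 1.75e-07). Ovary and heart, neighbours in the order, did not differ past the threshold in either set (0.10, adjusted p 0.373, and 0.12, adjusted p 0.366). Between organs most probes differ, 72% to 80.9% of those tested, and the sizes of these differences depend on the scaling: with library totals lung and ovary no longer differed in either set (adjusted p 0.707 and 0.132), kidney and lung no longer differed in the 1,4-DCB controls (adjusted p 0.130), and ovary exceeded heart by 0.95 and 1.22. The size of the liver difference depends on it too. Scaled within each organ, the 1,2-DCB controls averaged 3.04 CPM in liver and 58.3 CPM in heart, a wider gap than 17.3 and 46.6 CPM.

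The panel holds 9 other glutathione transferases, of the alpha, mu, zeta and microsomal classes, enzymes with overlapping substrates. This list and those below were chosen with earlier results of these data known, so their calls and p-values are descriptions. In liver at 500 ppm 1,2-DCB 4 of these 9 rose, 3 fell and 2 did not pass, with a median log2 fold change of 0.51, against 0.03 over all probes and 5.25 for Gstp1, while 35% of all probes were called higher and 32.7% lower. Gsta2, an abundant alpha-class enzyme of liver, rose to 414 ± 78.4 CPM, against 86.2 ± 16.4 CPM in controls (log2 2.26 ± 0.13, edgeR adjusted p 4.65e-18). Gsta4 and Gstm2 rose by 0.51 and 0.78, and Gstm3 passed at 0.363 CPM, against 0.0379 CPM in controls, levels of few counts for which no fold is stated. Gstm7, Gstz1 and Mgst1, the microsomal enzyme, fell by 1.13, 0.83 and 0.70. In 1,4-DCB liver at 800 ppm 4 of 8 tested rose and none fell, among them Gsta2 (1.81 ± 0.18), Gstm2 (1.26), Gsta3 (1.03) and Gsta4 (1.03), with a median of 0.64, against 19.5% of all probes called higher and 15.4% lower.

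In 1,2-DCB kidney at 500 ppm 7 of 8 other transferases rose and none fell, with a median of 0.80, where 8.72% of all probes were called higher and 7.7% lower; Gsta2 reached 662 CPM, against 254 CPM in controls (log2 1.38), and Gstm2 and Gsta3 rose by 1.37 and 1.28. In lung at 500 ppm Gsta3 rose by 1.59, beside 1.55 for Gstp1, with Gstz1 (0.66) and Gstm2 (0.38), while Gsta4 fell by 0.54. Of all lung probes 8.85% were called there, 4.16% higher. In heart, where Gstp1 rose by 0.27, 4 of 6 tested rose, beside 5.16% of all probes called higher. These were Gstz1 by 1.00, Mgst1 by 0.96, Gstm2 by 0.38 and Gsta4 by 0.30. In ovary at 500 ppm Gstp1 was the only transferase called, with 0 of 8 others, where 1.52% of all probes were called higher. The sizes set it less apart: Gsta3 differed by 0.54 ± 0.31 (SE), beside 0.50 ± 0.12 for Gstp1, and Gsta2 by -1.27 ± 0.40. The median of the 8 was -0.0007. Under 1,4-DCB at 800 ppm the kidney had 1 of 8 called (Gstm2, 0.66), the heart 1 of 6 (Gsta4, 0.41), the lung 0 of 8 and the ovary 2 of 8 (Gsta3, 0.82, and Gstm7, 0.72), all higher, in organs where Gstp1 itself was not called and where 2.37%, 3.07%, 2.87% and 4.23% of all probes were called higher.

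**Figure D4:**
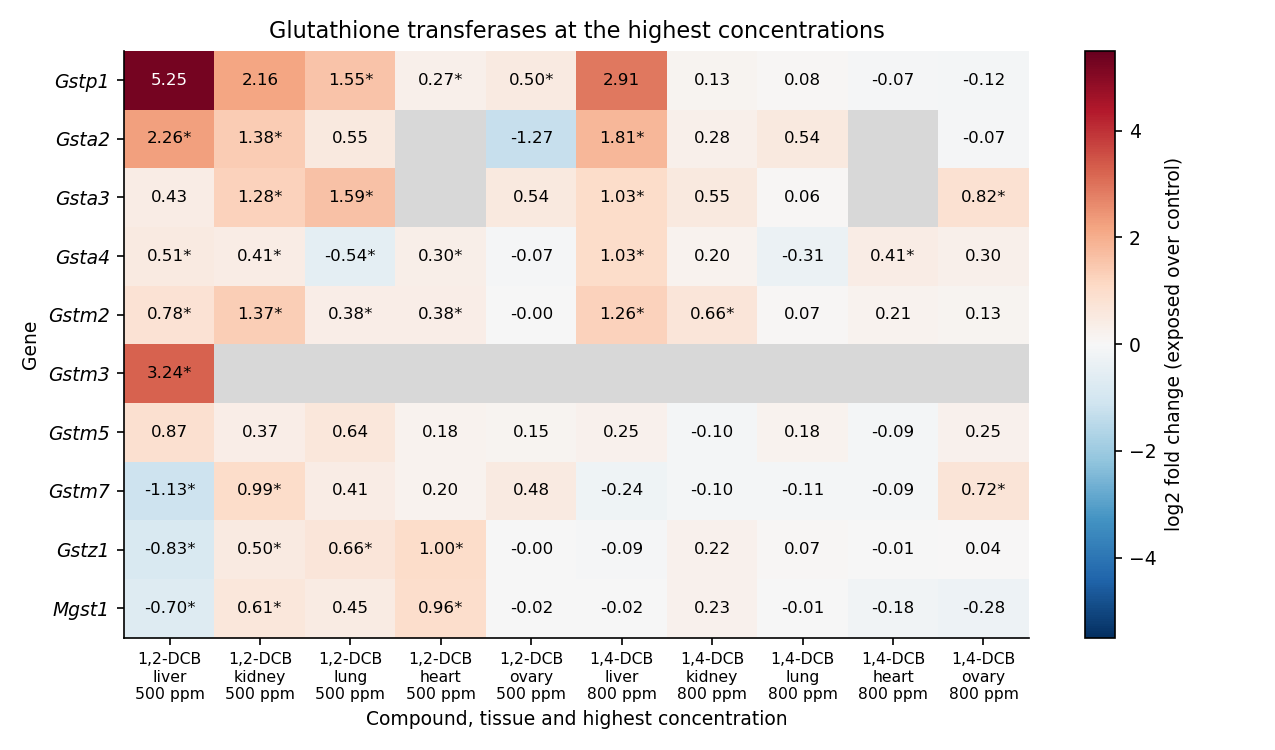
Log2 fold change, exposed over control, of Gstp1 and the 9 other glutathione transferases on the panel at the highest concentration of each compound in 5 tissues; grey cells were not tested, and an asterisk marks an edgeR adjusted p under 0.05 (none is given for Gstp1 in the 3 tissue and compound pairs that chose it). Gstp1 has the largest value of the column in 1,2-DCB liver (5.25) and kidney (2.16) and in 1,4-DCB liver (2.91), and Gsta3 in 1,2-DCB lung (1.59).

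The genes that supply and recycle glutathione, the co-substrate of Gstp1, moved in part. In 1,2-DCB liver at 500 ppm 5 of 10 tested rose and 2 fell, beside 35% and 32.7% of all probes. The subunits of glutamate-cysteine ligase, the enzyme that limits glutathione synthesis, both rose: Gclm to 29.8 CPM, against 3.93 CPM in controls (log2 2.92 ± 0.17), and Gclc to 588 CPM, against 110 CPM (2.42 ± 0.16). Gpx2, a glutathione peroxidase, rose by 5.28 ± 0.52, from a low control level of 0.264 CPM to 9.97 CPM. Gsr, which regenerates reduced glutathione, rose by 1.89, from 0.669 to 2.46 CPM. At 800 ppm 1,4-DCB 5 of 10 rose in liver and 1 fell, beside 19.5% and 15.4% of all probes, with Gclm at 1.6, Gsr at 1.31 and Gclc at 0.75. In 1,2-DCB kidney, where Gstp1 was 4.46-fold higher, 2 of 12 rose, Gpx4 by 0.29 and Gpx2 by 1.11, and Gclc fell by 0.75, beside 8.72% of all probes higher and 7.7% lower. The kidney call of Gpx2 was narrow (edgeR adjusted p 0.0498), with 2 of 5 kidneys above every control. All calls of these genes are edgeR calls at an adjusted p under 0.05 over all probes.

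The list of conjugate exporters, not limited to glutathione conjugates, held Abcc genes with Abcg2, Slc51a and Slc51b. In liver it was led by Abcc3, a transporter of the basolateral hepatocyte membrane. Abcc3 was the only probe called in 1,2-DCB liver at 10 ppm, a log2 fold change of 1.09 ± 0.18 (edgeR adjusted p 0.00104). At 500 ppm it reached 16.1 CPM, against 2.15 CPM in controls (2.90 ± 0.17), and at 800 ppm 1,4-DCB 17.1 CPM, against 2.69 CPM in controls (2.66 ± 0.22). In the same groups the log2 fold change of Gstp1 was 5.25 at 500 ppm 1,2-DCB and 2.91 at 800 ppm 1,4-DCB. Of 7 exporters tested in liver, 5 rose and 1 fell at 500 ppm 1,2-DCB, beside 35% and 32.7% of all probes, and 2 rose and 1 fell at 800 ppm 1,4-DCB, beside 19.5% and 15.4%. In 1,2-DCB kidney 2 of 9 rose, Slc51a by 2.65 and Abcc4 by 1.48, beside 8.72% of all probes.

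Other targets of NRF2, counted without the glutathione genes, were counted in the same fits. Under 1,2-DCB 0 of 18 were called in liver at 10 ppm. At 100 ppm 1 rose, where 1.49% of all probes were called higher, and at 250 ppm 12, where 13.5% were. All 18 rose at 500 ppm, where 35% of all probes were called higher. Their median log2 fold change at 500 ppm was 2.46, against 0.03 over all probes. Under 1,4-DCB 11 of 17 rose at 400 ppm (median 0.49, beside 4.75% of all probes) and 16 of 17 at 800 ppm (median 0.87, beside 19.5%). Akr7a3, an aldo-keto reductase that handles aflatoxin aldehyde, reached 169 ± 27.9 CPM at 500 ppm, against 4.302 ± 1.28 CPM in controls, a log2 fold change of 5.29 ± 0.23 (edgeR adjusted p 8.83e-21). At 800 ppm 1,4-DCB it reached 44.3 ± 10.7 CPM, against 4.41 ± 1.94 CPM (3.32 ± 0.27). Cbr1, a carbonyl reductase, rose by 3.27 at 500 ppm 1,2-DCB and 0.87 at 800 ppm 1,4-DCB, and Txnrd1, thioredoxin reductase, by 2.56 at 500 ppm.

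Outside the liver more of the list was called at the highest concentration of 1,2-DCB than of 1,4-DCB in kidney, lung and heart, at concentrations that differ. At 500 ppm 1,2-DCB 11 of 18 rose in kidney (median 0.44), 13 of 18 in lung (median 0.56) and 9 of 17 in heart (median 0.61), while 0 of 18 were called in ovary, where Gstp1 was; of all probes 8.72%, 4.16%, 5.16% and 1.52% were called higher in these organs. At 800 ppm 1,4-DCB 3 of 18 rose in kidney, 2 of 18 in lung and 2 of 16 in heart, and in ovary 0 rose and 1 of 18 fell, beside 2.37%, 2.87%, 3.07% and 4.23% of all probes called higher. In kidney the list included Ephx1, microsomal epoxide hydrolase, which rose at 500 ppm to 339 CPM, against 87.6 CPM in controls (log2 1.95 ± 0.16), and Akr7a3 (1.01 ± 0.14). Hmox1, heme oxygenase, rose by 3.22 with 2 of 5 kidneys above every control and 1 below.

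Genes of the NRF2 and AP-1 regulators themselves were measured too, in a list that also held other regulators such as Rxra, Esr1 and Cebpb. In 1,2-DCB liver at 500 ppm Nfe2l2, which encodes NRF2, averaged 109.3 CPM, against 75.7 CPM in controls (log2 0.53, edgeR adjusted p 0.000406), and Keap1 rose by 0.41 (adjusted p 0.00674). Of 13 regulator probes tested 5 rose and 3 fell, shares near the 35% and 32.7% of all probes. The first of them by p-value was Fosl1, which encodes the AP-1 subunit FRA1, at 56.3 ± 54.7 CPM (SD, n = 5), against 0.178 ± 0.138 CPM in controls (SD, n = 10), a log2 fold change of 8.29 ± 0.53. Of the MAF partners Mafk rose by 1.61 and Maff reached 1.43 CPM, against 0.0244 CPM in controls. Rxra, a member of the list that is not a MAF gene, fell by 0.72. In 1,4-DCB liver at 800 ppm 2 of 13 rose and 2 fell, again near the 19.5% and 15.4% of all probes. Keap1 rose by 0.36 (edgeR adjusted p 0.0455), while Esr1 fell by 0.46 and Fos by 1.41. Cebpb rose by 0.25 at 1 probe, with 0 of 5 rats above every control, and its other probe was not called.

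P450 and other phase I enzymes were counted as well, a list that shares Ephx1 with the NRF2 targets. Of 10 P450 and other phase I genes tested in 1,2-DCB liver at 500 ppm 6 rose and 3 fell, beside 35% and 32.7% of all probes: Ephx1 reached 506 CPM, against 52.1 CPM in controls (log2 3.28 ± 0.19), Aldh1a1, an aldehyde dehydrogenase, rose by 2.88 and Por, the P450 reductase, by 1.52, while Cyp1a2 fell by 1.69. In 1,4-DCB liver at 800 ppm 9 of 11 rose and 1 fell, beside 19.5% and 15.4% of all probes, with Cyp2b1 at 643 CPM, against 1.36 CPM in controls (8.85 ± 0.57), and Cyp2b2 at 576 CPM, against 6.91 CPM (6.39 ± 0.50). In 1,2-DCB kidney at 500 ppm 5 of 11 rose (8.72% of all probes), and in 1,4-DCB kidney at 800 ppm 4 of 11 (2.37% of all probes), among them Cyp1a1 by 1.93 and Por by 0.45. The kidney of 1,4-DCB rats thus had called genes of this list while Gstp1 was not called.

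Genes known, like Gstp1, as markers of enzyme-altered foci in rat liver were also counted. In 1,2-DCB liver at 500 ppm 8 of 9 rose and none fell, beside 35% and 32.7% of all probes; Abcb1b, a P-glycoprotein gene, rose by 5.57 ± 0.29 on the log2 scale. At 800 ppm 1,4-DCB 6 of 10 rose in liver, beside 19.5% of all probes. This list shares members such as Akr7a3, Akr1b8, Ephx1 and Nqo1 with other lists and tells nothing of foci in these rats, whose tissue was not examined here. Bile duct cells normally contain Gstp1, and the summed bile duct markers (5 genes) were 0.965 to 2.15 CPM at 500 ppm 1,2-DCB, against 0.604 to 3.33 CPM in controls, and 0.558 to 2.30 CPM at 800 ppm 1,4-DCB, against 1.07 to 3.14 CPM. Summed hepatocyte markers (10 genes) were 496400 to 631400 CPM at 500 ppm, against 539900 to 784800 CPM. The macrophage, lymphocyte, endothelium and fibroblast sums of those 500 ppm livers were each below the control range, as with macrophage markers at 24.8 to 35.9 CPM, against 47.8 to 69.1 CPM. Their part in the liver result was not tested.

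Across the 40 libraries of 1,2-DCB liver the log2 levels most like that of Gstp1 were those of Akr7a3 (Pearson r 0.975), Gsta2 (0.957), Akr1b8 (0.953), Ephx1 (0.941) and Abcc3 (0.938), among 2018 probes. Across 40 libraries of 1,4-DCB liver they were Akr7a3 (0.892), Akr1b8 (0.870), Pcna (0.856), Ephx1 (0.844) and Gclm (0.842). In 39 libraries of 1,2-DCB kidney they were Ephx1 (0.897), Hsd17b11 (0.889), Pir (0.860), Aldh1a1 (0.848) and Akr7a3 (0.842). These points share libraries, scaling and the concentration groups, which the gene was chosen on, so the correlations are descriptions. Over the 70 group means of all organs the list was another, Por (0.928), Trim59 (0.927), Stmn1 (0.926), Ndufv3 (0.924) and Pir (0.924), points that hold the differences between organs as well as those of exposure. Without the highest concentration 5 of the 5 genes stayed in 1,2-DCB liver, 3 in 1,4-DCB liver and 1, Pir, in kidney.

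Rats of 1 group also varied together in Gstp1 and some of these genes. Over the deviations from the group mean in the 70 liver libraries below the highest concentrations, the genes most like Gstp1 were Akr7a3 (Pearson r 0.784), Akr1b8 (0.727), Abcc3 (0.682), Pir (0.620) and Ephx1 (0.553), among 1983 probes. The rats named next were picked after their values were seen. At 10 ppm 1,2-DCB the rats with 10.4 and 8.21 CPM Gstp1, F202 and F204, had 11 and 11.2 CPM Akr7a3, against 3.45 to 8.79 CPM in the rest of that group and 2.31 to 6.89 CPM in the controls. At 1 ppm 1,4-DCB rat F104, with 12.6 CPM Gstp1, had 9.67 CPM Akr7a3 and 8.08 CPM Abcc3, against at most 7.82 and 3.61 CPM in the controls. At 400 ppm 1,4-DCB the rat with 12.2 CPM Gstp1, F502, had 19.8 CPM Akr7a3, and the rat with 2.04 CPM, F504, had 5.29 CPM, so the order of the genes matched at both ends of the group. Other rats were above every control in Gstp1 but within the control range in Akr7a3. Under 1,2-DCB these included F101 at 1 ppm (5.60 and 6.06 CPM), F301 at 30 ppm (5.88 and 5.77 CPM) and F401 at 100 ppm (7.635 and 3.945 CPM). Under 1,4-DCB F402 at 150 ppm had 6.38 CPM Gstp1 and 6.775 CPM Akr7a3.

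**Figure D5:**
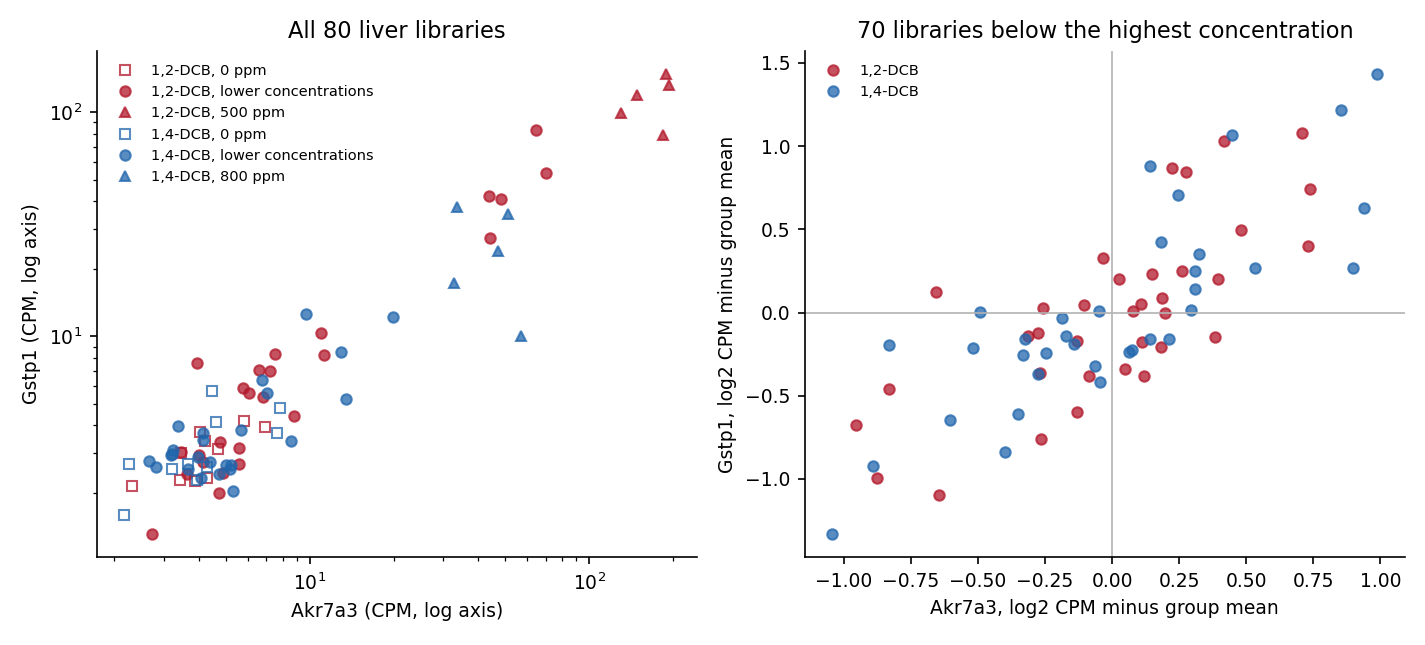
Left, Gstp1 against Akr7a3 in CPM (log axes) in all 80 liver libraries, by compound and concentration; right, the same genes as log2 CPM minus the mean of the rat's own group in the 70 libraries below the highest concentrations. The points of the right panel run from lower left to upper right, with a Pearson r of 0.784.

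The annotation used here lists a close relative, Gstp3, that has no probe on the panel; whether the Gstp1 probe also takes its transcript was not analysed here.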

How the data were processed

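Per the labels' protocols, tissue was kept in RNAlater, RNA was extracted with QIAzol and a column kit with DNase, and S1500+ libraries were made by TempO-Seq. The authors' deposited table holds raw read counts per probe, adjusted for probe attenuation (unlabelled oligonucleotide that damps abundant transcripts): 115 of 2654 probes have counts in steps above 1, while the Gstp1 probe has a step of 1. Bowtie 1.3.1 is named in the submitters' processing notes, and the sources used here name no genome build. Left out were the libraries that the submitters rejected, 5 of them too shallow, 2 with a low alignment rate and 2 that stood apart.

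From the deposited counts, edgeR 4.0.16 in R 4.3.3 gave a quasi-likelihood fit per tissue and compound, 10 fits of 7 groups, with TMM scaling and its filter on low counts, and Benjamini-Hochberg adjustment over all probes (threshold 0.05). Joint fits gave the comparisons of compounds, of organs at 0 ppm and of responses between organs. SE is the fold change over the root of F, and intervals cover 95%. Correlations used log2 CPM with a prior count of 2. The tests were first tested on simulated data. Alternatives were DESeq2 1.42.0, limma 3.58.1 voom, other scalings and filters, and leaving out each library.

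Gstp1 and all gene lists were chosen with earlier results of these data known. Genes named are Gstp1, every glutathione transferase of the panel, up to 4 called members of each other list by p at the highest concentration in liver and kidney, and the 5 genes most like Gstp1 in each set. Other genes or rats named were chosen after their values were seen. Libraries of different organs come from the same rat, so pairing by rat comes from the labels; deviations from the group means in 2 organs of 1 rat had a median correlation of 0.154 under 1,2-DCB and 0.185 under 1,4-DCB, against -0.013 and -0.0201 for different rats. The animal as a replicate block changed no call: the difference in response at 500 ppm was then 1.01 for lung minus ovary and 1.19 for lung minus heart.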

Additional observations from a re-analysis of the deposited data

Results flagged for a closer look

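In 6 of 69 groups of 4 to 10 libraries 1 rat lay far from the rest in Gstp1, where chance alone gives about 1 group in 20. At 500 ppm 1,2-DCB rat F604 had 1152 CPM in kidney, and the next rat 646 CPM. At 100 ppm 1,2-DCB rat F401 had 160.3 CPM in ovary, and the next 102.6 CPM. In 1,4-DCB liver rat F305 had 3.804 CPM at 50 ppm (next 2.98 CPM) and rat F402 6.38 CPM at 150 ppm (next 2.74 CPM). In 1,4-DCB lung control rat F7 had 164 CPM (next 129.8 CPM), and at 10 ppm rat F202 was low at 107.9 CPM (next 128.4 CPM). Gaps were judged against the group's range by Dixon's criterion.

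At 500 ppm 1,2-DCB the response of Gstp1 differed between organs in edgeR's quasi-likelihood test of the difference itself: lung minus ovary was 1.08 (adjusted p 0.00448) and lung minus heart 1.27 (adjusted p 0.000576) on the log2 scale.

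Among the 9 libraries left out, 3 of exposed rats were above the used controls in Gstp1 CPM by library total. The lung of rat F601 at 500 ppm 1,2-DCB had 163 CPM from 53 counts, with used controls at 82.9 to 149.8 CPM. The lung of rat F204 at 10 ppm 1,4-DCB had 187 CPM from 23 counts, and that of F502 at 400 ppm 194 CPM from 5745 counts, with used controls at 112.1 to 180.8 CPM. A rejected control, the kidney of 1,2-DCB rat F1, was also above its used controls, at 257 CPM from 87 counts, with those at most at 195.7 CPM. With all libraries in the fit the lung change was 1.42 at 500 ppm 1,2-DCB (edgeR adjusted p 2.81e-09) and 0.31 at 400 ppm 1,4-DCB (adjusted p 0.0884).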

How the results depend on the processing

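Of the changes of Gstp1 against its controls, 534 values came from another test, scaling, filter or choice of libraries, and 1 of them changed a call. With 1 library left out 3 of 875 did. Most of these values came from comparisons without a call: of 60 comparisons 18 were descriptions and 39 were tested but uncalled. All changed calls were of heart or ovary at 500 ppm 1,2-DCB, among only 3 called comparisons, and the lung call did not change. Signs were less stable. Of the 534 and 875 values 20 and 74 had another sign, all of changes reported between -0.07 and 0.11 and none of a called one. At 500 ppm 1,2-DCB the liver change was 5.66 with library totals and 5.63 with a filter at a mean of 20 CPM, against 5.25. The heart change at 500 ppm was 0.24 with library totals (edgeR adjusted p 0.328); with 1 library left out it ranged from 0.24 to 0.30, and without F601 or F604 (0.26 and 0.25) it was not called. The ovary change ranged from 0.41 to 0.57, with the lowest, not called, without F604. Under library totals the controls gave lung minus ovary 0.053 and 0.25 for 1,2-DCB and 1,4-DCB, kidney minus lung 0.24 for 1,4-DCB, none called, and ovary minus heart 0.95 and 1.22, both called; the cause was not tested. 1,4-DCB liver has no Gstp1 value under the filter at 20 CPM, which its mean does not reach.

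Counts of called probes moved more. In 1,2-DCB liver at 100 ppm 43 probes were called, 25 with the filter at 20 CPM, 23 with the exposed group and controls alone, 27 with voom, and 12, 16 and 26 without F403, F404 or control F8; at 250 ppm 500 were, 823 with library totals and 210 with the filter, and at 500 ppm 1368 were, 0.294 times as many with the filter. In ovary at 500 ppm 67 were, 1.7 times as many with DESeq2, 1.87 times with the 2 groups alone, and 25 to 33 without F602, F603 or F604; in lung without F605 there were 0.583 times as many. Under 1,4-DCB at 800 ppm the ratio to the reported count was 0.232 in lung with all libraries, 2.12 there with library totals, 0.589 to 0.601 in heart without F603 and in lung without F605, and 0.441 to 0.629 in ovary without F602, F603 or F604; in kidney it was 0.658 with the filter. In 1,4-DCB liver it was 0.577 at 400 ppm and 0.365 at 800 ppm with the filter, and 0.469 at 400 ppm without F502. With that filter, which tests fewer genes, the NRF2 targets that rose were 8 at 500 ppm and 7 at 250 ppm in 1,2-DCB liver, 5 at 800 ppm and 4 at 400 ppm in 1,4-DCB liver (7 at 400 ppm without F502), and 7 in kidney, 6 in lung and 3 in heart at 500 ppm (7 in kidney without F604). The filter also removed members of this list from testing, such as Akr1b8 in liver and kidney. Its counts can therefore not be set against those of the reported fits. Of the 5 genes most like Gstp1, Spearman correlation shared 4 in 1,2-DCB liver, 3 in kidney, 1 in 1,4-DCB liver, 0 over group means and 4 over deviations. Without the highest concentration 5 were shared in 1,2-DCB liver, 1 in kidney (Pir, then first at a Pearson r of 0.611), 3 in 1,4-DCB liver and 3 over group means. The animal as a replicate block left the control differences at 0.99 for kidney minus lung and 1.45 for heart minus liver in the 1,2-DCB controls. Depth limits the low concentrations in liver, where Gstp1 rests on 77 to 186 counts in a 1,2-DCB control library.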
